A study of Mus musculus with 8 samples.

Results

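The chromatin sites described here are the 1211 places in the genome of a mouse acute myeloid leukaemia cell line at which PU.1 ChIP-seq gave a peak summit in every treated library and none in untreated cells. They were chosen by the authors' peak calls: the summits of 7 libraries were merged where they lay within 100 bp of one another, and a merged site was kept when it held a summit from 6 libraries (Day 4, Day 8, Day 12, Day 12- 4, Day 12- 8 and Day 12- 12) and none from Day 0. Of 246675 merged sites, 1211 met this rule, which is 0.491%. Because the calls of all 7 lists chose the sites, the presence of a call and its score are given below as descriptions, and no test was made on them.

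The cells were AML246, grown in IMDM with 10% serum and IL-3, and sorted by flow cytometry before ChIP. Doxycycline at 0.1 ug/mL was given at day 0 and taken away at day 12 of a 24 day course, and the titles call the first phase restoration and the second knockdown. In the restoration phase, Day 0 was untreated, and Day 4, Day 8 and Day 12 carried treatment labels of 4, 8 and 12 days of Dox. In the knockdown phase the titles and the treatment labels did not run together: Day 12- 4 was labelled 12 days of Dox, Day 12- 8 was labelled 4 days off Dox and Day 12- 12 was labelled 8 days off Dox. Libraries are therefore called by their titles. Day 12- 4 was made from a Cd11b high viable gate, and the others from all viable cells, so sort and time cannot be told apart for that library. The genotype of the line and the construct that answers to Dox are not given in the sources used here. With 1 library per time point there is no replicate check on any difference, and with no RNA measured the cell label could not be checked against marker levels.

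PU.1, encoded by Spi1, is a DNA-binding protein of the ETS family that drives the myeloid and B-lymphoid programmes of blood cells, and low PU.1 activity is a known feature of some myeloid leukaemias. All ETS proteins read a GGAA core, and PU.1 favours a purine-rich flank, as in GAGGAAGT. Many other ETS proteins, such as GABPA and ELF1, favour a cytosine before the core, as in CCGGAAGT, a form that is frequent in the CpG-rich promoters of genes used by most cells.

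Sequences of 8 sites that lay in a RefSeq promoter window are shown as examples. All 8 hold CGGAAG or AGGAAG, and promoter members without either string are not among them. Some hold CGGAAG (a cytosine-preceded core), some AGGAAG (an adenine-preceded core), and the Tssc4 promoter holds both, counted on either strand. The letters are RefSeq GRCm38.p6, 5′ to 3′ on the strand of the named gene, and cover up to 40 bases on each side of the site's middle. Capitals mark AGGAAG or CGGAAG, or the reverse complement of either.
Prdx5 (an antioxidant peroxiredoxin), chr19:6910086-6910166, minus strand: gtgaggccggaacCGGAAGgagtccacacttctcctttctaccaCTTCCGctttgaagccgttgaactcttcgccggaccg
Gpatch2l, chr12:86241737-86241817, plus strand: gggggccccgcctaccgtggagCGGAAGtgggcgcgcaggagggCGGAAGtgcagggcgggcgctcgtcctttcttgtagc
Rps18 (a protein of the small ribosomal subunit), chr17:33955637-33955717, minus strand: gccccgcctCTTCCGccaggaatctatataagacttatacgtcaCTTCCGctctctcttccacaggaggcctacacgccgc
Cybc1 (a chaperone of the phagocyte oxidase), chr11:121229098-121229178, minus strand: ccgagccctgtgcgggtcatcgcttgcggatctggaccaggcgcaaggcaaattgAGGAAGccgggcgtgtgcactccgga
Ccdc88b, chr19:6858172-6858252, minus strand: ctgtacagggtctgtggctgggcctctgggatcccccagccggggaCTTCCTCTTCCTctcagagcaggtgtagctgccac
Cbfb (the partner subunit of RUNX factors), chr8:105170459-105170539, plus strand: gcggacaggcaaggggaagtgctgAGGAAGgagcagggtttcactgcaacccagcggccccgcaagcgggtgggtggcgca
Fos (an AP-1 subunit induced early after stimulation), chr12:85473821-85473901, plus strand: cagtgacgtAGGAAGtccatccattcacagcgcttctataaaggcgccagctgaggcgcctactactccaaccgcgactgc
Tssc4, chr7:143069118-143069174, plus strand: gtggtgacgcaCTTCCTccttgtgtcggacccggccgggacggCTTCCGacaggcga

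The site in the Prdx5 window also lies in Trmt112. The Gpatch2l and Cbfb sites had a Day 0 summit 118 and 165 bp away. The Prdx5, Gpatch2l and Rps18 stretches each held 2 matches of CGGAAG and none of AGGAAG. In the Cybc1, Cbfb and Fos stretches there was 1 match of AGGAAG, Ccdc88b had 2 that abut, and Tssc4 had 1 of each string. Cores with other flanks were not counted. Some strong sites held neither string: the promoter sites of Pacc1, a chloride channel gene, and Lin37, a subunit of the DREAM complex, had no match within 40 bases of their middle. The stretch at the Fcer1g start, cut short by the edge of its window, also held neither string. The matches are strings in the reference and say nothing of which factor was bound.

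Most of the 1211 sites lay at gene starts, a share that turned on Day 12- 8. Within 1 kb of a RefSeq start site were 730 of them, 60.3% (95% exact Clopper-Pearson interval 57.5 to 63.1%), and 155, or 12.8%, were within 1 kb of starts on both strands. These intervals, like all those below, cover counting error only. The median start-site member sat 1.5 bp upstream of the start, at -1.5 bp, and 482 of the 730 (66.0%) lay within 100 bp of it. A further 144 sites were near a gene end only, with either edge of a protein-coding gene but no listed start inside 1 kb. Counted by gene edges, 62.8% of the 1211 sites were within 1 kb, against 29.1% of the 4144 sites that the rule gave without Day 12- 8. The remaining 337 sites, 27.8% (25.3 to 30.4%), were more than 1 kb from both and are called remote here. The RefSeq promoter table has a start for 79.9% of protein-coding genes, so some of the gene-end and remote sites may lie at starts it does not list.

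This placement differed from that of 3 neighbouring classes of sites. Sites called in all 7 libraries, Day 0 included, were within 1 kb of a start in 71.0% of 936 cases (68.0 to 73.9%). Sites called in 5 of the 6 treated libraries but in neither Day 12- 8 nor Day 0 were near a start in 14.8% of 2927 cases (13.6 to 16.2%). Among all 83055 sites of the Day 12 list that Day 0 lacked, the share was 13.3% (13.1 to 13.5%). Position was not used by the rule, and the interval for the 1211 sites overlaps none of these 3. The 83055 sites include the 1211 and the 2927, so that class is not separate from them. It also takes in Day 12 summits of any score, whereas the lowest member stood at percentile 75.7 of the Day 12 list. The classes were not matched by score. The share inside gene bodies differed less, at 67.2% (64.5 to 69.9%) for the 1211 sites, against 65.9% for the sites of all 7 libraries, 55.4% for those lacking Day 12- 8 and Day 0, and 65.6% for those of Day 12 and not Day 0.

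The score of a summit is the authors' peak-caller value, which by its lowest value across the lists, 1.30, matches −log10 of a q limit of 0.05. Scores depend on the depth of their library, which is unknown here, so they rank sites within a list and give no change between lists. In restoration the median score of the 1211 sites was 35.0 for Day 4, then 42.3 for Day 8 and 261 for Day 12. In knockdown it was 18.6 in Day 12- 4, 19.2 in Day 12- 8 and 51.9 in Day 12- 12. Within its own list the median member stood at percentile 78.2, 79.5 and 97.3 for Day 4, Day 8 and Day 12, and at percentile 73.4, 88.0 and 98.2 for Day 12- 4, Day 12- 8 and Day 12- 12. All 1211 sites were above the median of the Day 12 list, whereas 969 were above the median of the Day 12- 4 list. The lists held from 8043 summits (Day 0) to 148415 (Day 12- 12), and the 1211 sites made up 12.3% of the Day 12- 4 list but 0.816% of the Day 12- 12 list.

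Position and score went together differently in Day 12- 8 than in the other lists. In Day 12 the median score was 255 for the start-site members, 241 for those near a gene end only and 307 for the remote ones. In Day 4 it was 31.3 at starts, 28.4 at gene ends and 52.7 at remote sites, and the remote sites were also the highest in Day 8 and Day 12- 12. In Day 12- 8 the remote sites were the lowest, with 22.1 at starts, 22.2 at gene ends and 12.3 at remote sites, and in Day 12- 4 the classes lay close together, at 18.3, 18.8 and 18.7. Of the 100 members with the highest Day 12- 8 score 16 were remote, against 33 in Day 12- 4 and between 49 and 54 in the other 4 lists.

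**Figure D1:**
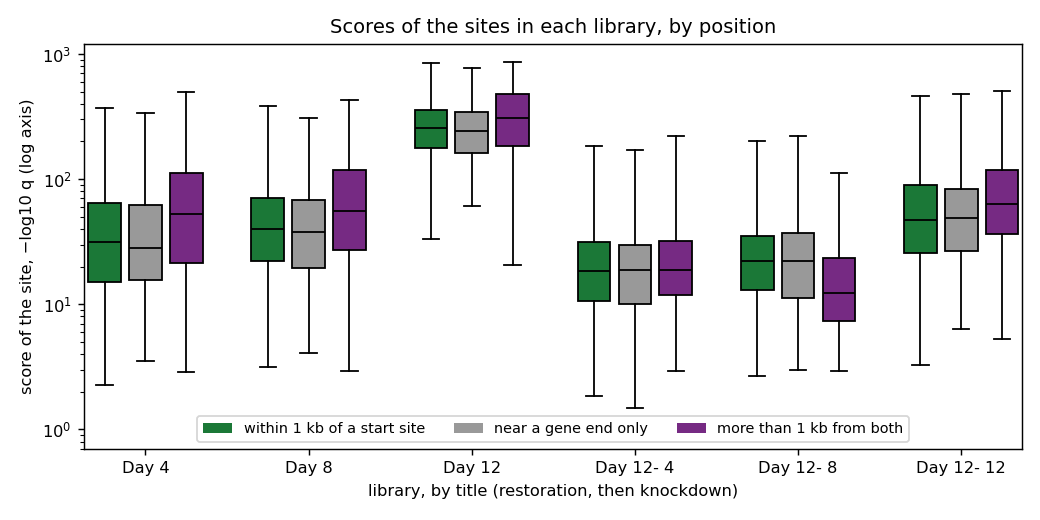
Scores (authors' −log10 q, log axis) of the 1211 sites in each treated library, as boxes for start-site members (n = 730), members near a gene end only (n = 144) and remote members (n = 337); boxes span the quartiles with the median as a line, and whiskers reach the lowest and highest score. The remote box is the highest of the 3 at Day 12 (median 307) and the lowest of the 3 in Day 12- 8 (median 12.3).

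The order of the 1211 sites by score was most alike among Day 4, Day 8, Day 12 and Day 12- 12. It was less so for Day 12- 4 and least for Day 12- 8. Spearman's rank correlation across sites was between 0.59 and 0.89 for the 10 pairs of lists without Day 12- 8, and between 0.04 and 0.52 for the 5 pairs with it. Among Day 4, Day 8, Day 12 and Day 12- 12 it was 0.80 to 0.89. Day 12- 4 had 0.59 to 0.71 with these lists and 0.52 with Day 12- 8. These are descriptions over sites, which share libraries and base composition and are not independent samples. Single sites differed in the lists in which they scored low. At a remote site inside Cyth4, a guanine nucleotide exchange factor for ARF GTPases, the scores were 495, 416 and 859 in Day 4, Day 8 and Day 12, then 9.48, 7.54 and 137 in Day 12- 4, Day 12- 8 and Day 12- 12. At the Cbfb promoter they were 168, 191 and 388 in restoration, then 146, 203 and 217 in knockdown. A Day 0 summit lay 165 bp from the Cbfb site. Cyth4 had the highest Day 12 score of the set but was below the members' medians of 18.6 in Day 12- 4 and 19.2 in Day 12- 8. Cbfb was above the members' median in each treated library.

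**Figure D2:**
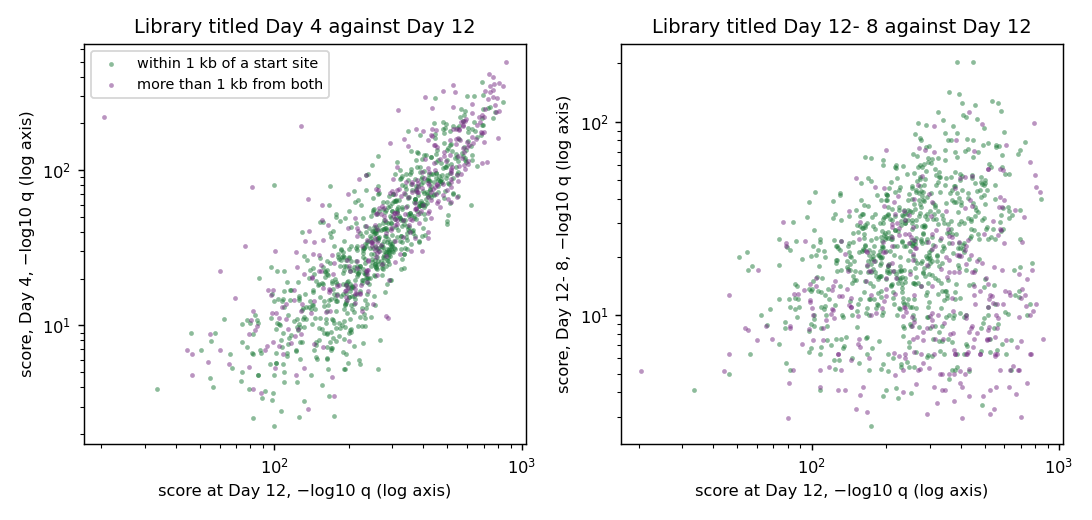
Scores of the start-site (n = 730) and remote (n = 337) members, 1 point per site, in Day 4 (left) and Day 12- 8 (right) against Day 12, both axes logarithmic and in the authors' −log10 q. Over all 1211 sites Spearman's correlation was 0.87 between Day 4 and Day 12 and 0.19 between Day 12- 8 and Day 12, where remote points fill the lower right.

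Sites that narrowly missed the rule most often lacked the Day 12- 8 call. Sites that met the rule but for a single missing treated library numbered 160 for Day 4, 38 for Day 8, 9 for Day 12, 259 for Day 12- 4, 2927 for Day 12- 8 and 11 for Day 12- 12. In the 1211 sites the Day 12- 8 summit lay a median of 45 bp from the median of the others, with 55.2% within 50 bp. For the other 5 treated libraries the medians were 15 to 28 bp, with 72.4 to 89.9% within 50 bp. The part of the 100 bp linkage in the missing Day 12- 8 calls was not tested. The 1211 and the 2927 sites together are the 4138 that the other 5 treated libraries called and Day 0 did not. Of these 4138, a Day 12- 8 call was present at 62.7% of the 1164 start-site ones (59.9 to 65.5%), at 50.2% of the 287 gene-end ones (44.2 to 56.1%) and at 12.5% of the 2687 remote ones (11.3 to 13.9%). These shares and those by Day 12 score are descriptions, since the rule used the Day 12- 8 call. With a Day 12 score of 400 or more, 71.2% of start-site sites had a Day 12- 8 call (64.2 to 77.5%, n = 191), against 38.6% of remote ones (33.1 to 44.2%, n = 311). With a score from 100 to 200 the shares were 65.1% at starts (59.5 to 70.5%, n = 307) and 14.6% at remote sites (11.5 to 18.1%, n = 466).

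**Figure D3:**
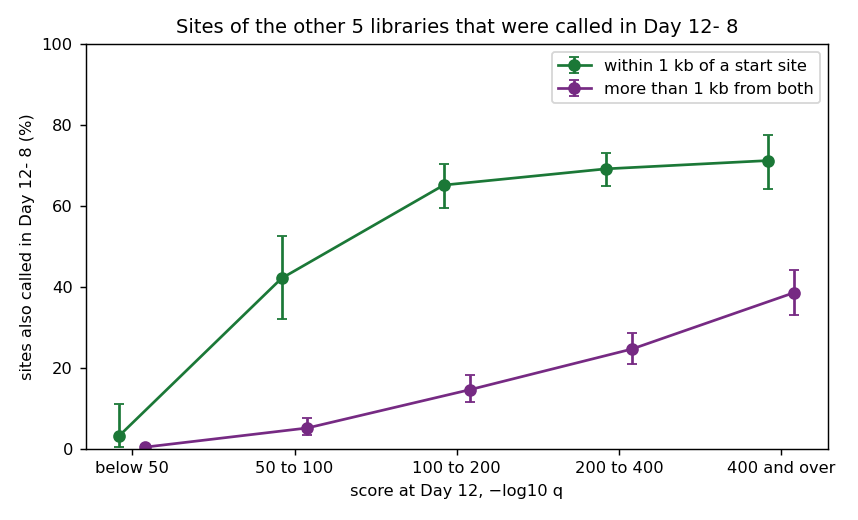
Share (%) of the 4138 sites called in the other 5 treated libraries and not at Day 0 that also had a Day 12- 8 summit, by Day 12 score class (authors' −log10 q), for start-site and remote sites, with 95% exact binomial intervals. Start-site sites lie above remote ones in each class, at 71.2% against 38.6% in the class of 400 or more.

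The 1211 sites also differed in score from the 2927 that lacked Day 12- 8. The median Day 12 score was 261 for the 1211 sites and 88.7 for the 2927, and the median Day 12- 12 score was 51.9 and 30.6 in the same order. At Day 4 the order was the opposite, with a median of 35.0 for the 1211 sites and 117 for the 2927. The depth of each library is unknown, and its part in these differences was not tested.

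The remote members with the highest Day 12- 8 scores were exceptions to the low remote scores in that list. A site in Chd2, which encodes a chromatin remodeller, scored 113 in Day 12- 8 and 431 in Day 12. A site 21541 bp from Epas1, the gene of the hypoxia factor HIF-2alpha, scored 98.9 in Day 12- 8 and 794 in Day 12. One 12862 bp from Wnt10a, a Wnt ligand gene, scored 96.8 in Day 12- 8 and 486 in Day 12.

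The letters under the promoter members differed from those of promoters at large. The middle of a member lay in 610 of 32851 RefSeq promoter windows, 1.86%, each of 300 bases running from 250 before to 50 after a start. One window was kept per site, which gave 498 windows. Strings were searched on both strands, and GGAA lies within each of the longer strings, AGGAAG within GAGGAAGT and its longer form (GAGGAAGT with A before it and G after it), and CGGAAG within CCGGAAGT. The bare GGAA core was in 99.8% of the member windows and in 96.0% of all windows. The cytosine-preceded CGGAAG was in 64.5% of member windows (60.1 to 68.7%) against 16.9% of all windows, and CCGGAAGT in 22.9% (19.3 to 26.8%) against 3.89%. AGGAAG was in 49.8% of member windows (45.3 to 54.3%) against 35.4% of all, GAGGAAGT in 7.43% (5.28 to 10.1%) against 3.20%, and the longer form of GAGGAAGT in 1.41% (0.567 to 2.87%) against 0.426%. CGGAAG and CCGGAAGT were added to the search after the data were seen.

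Shares of the longer strings also differed between the member windows and promoter windows of the 3 neighbouring classes, with the members between the others for GAGGAAGT. It was in 7.43% of the 498 member windows, against 88 of 439 windows with a site of all 7 libraries (16.4 to 24.1%) and 19.3% of 238 windows with a site lacking Day 12- 8 and Day 0 (14.5 to 24.9%), but 5.04% of 4719 windows with a site of Day 12 and not Day 0 (4.44 to 5.71%). CCGGAAGT was in 22.9% of member windows, against 13.7% (10.6 to 17.2%) for the sites of all 7 libraries and 13.4% (9.38 to 18.4%) for those lacking Day 12- 8 and Day 0, and 9.98% (9.14 to 10.9%) for those of Day 12 and not Day 0. The members' interval overlaps that of the Day 12 and not Day 0 class for GAGGAAGT, and none of the others for either string. The windows of Day 12 and not Day 0 include the member windows. For CGGAAG the member share of 64.5% and the 62.6% of the sites of all 7 libraries lay within each other's intervals, and the share was 46.2% for those lacking Day 12- 8 and Day 0 and 35.6% for those of Day 12 and not Day 0. For AGGAAG the member share was 49.8%, against 54.0% (49.2 to 58.7%) for the sites of all 7 libraries. It was higher, at 64.3% (57.8 to 70.4%), for those lacking Day 12- 8 and Day 0. For those of Day 12 and not Day 0 it was lower, at 40.7% (39.3 to 42.1%). Base composition moved with these classes: the median GC content was 60.7% in member windows, 66.0% for the sites of all 7 libraries, 56.0% for those lacking Day 12- 8 and Day 0, 60.3% for those of Day 12 and not Day 0 and 52.7% in all windows. CGGAAG and CCGGAAGT each hold a CpG. The median count of CpG per window was 22 for members and 28 for the sites of all 7 libraries. It was 13 for those lacking Day 12- 8 and Day 0, 19 for those of Day 12 and not Day 0, and 7 in all windows. The part of GC content and CpG count in the string shares was not tested.

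Both strings were densest at the middle of the member sites. CGGAAG started at 7.60 per 1000 positions within 25 bp of the middle, and at 6.10 from 26 to 50 bp, 4.20 from 51 to 100 bp and 2.01 from 101 to 150 bp. AGGAAG started at 4.26 per 1000 positions within 25 bp, and at 3.28, 2.07 and 1.39 in the next 3 distance classes. The bare GGAA core fell off less steeply, with 24.4 per 1000 positions within 25 bp and 13.7 from 101 to 150 bp. The sites of all 7 libraries had a like pattern between the same 2 distance classes. There CGGAAG went from 7.24 to 2.31, AGGAAG from 5.09 to 1.78 and GGAA from 22.9 to 13.4.

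**Figure D4:**
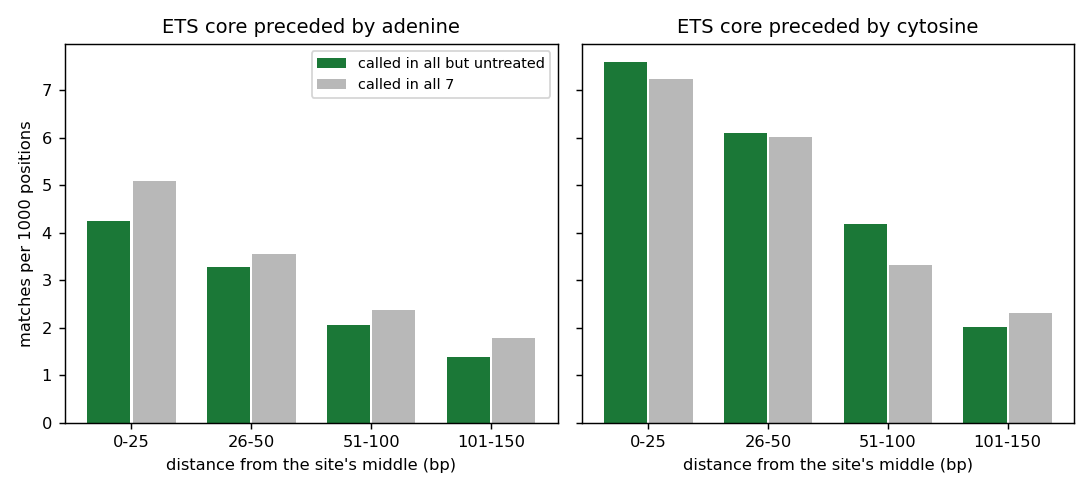
Matches per 1000 positions by distance (bp) from the middle of the site, for AGGAAG (left, core after adenine) and CGGAAG (right, core after cytosine). There were 498 promoter windows with a member and 439 with a site called in all 7 libraries. In the members the cytosine form has 7.60 matches per 1000 positions within 25 bp and 2.01 from 101 to 150 bp, and the adenine form 4.26 and 1.39. In the sites of all 7 libraries the values are 7.24 and 2.31 for the cytosine form and 5.09 and 1.78 for the adenine form.

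A member lay in the body or within 10 kb of 1862 of 21887 protein-coding genes, which is 8.51%, and the lists of genes by role below are read against that share. For genes with a member the median of the highest Day 12 score per gene was 265. A site within 10 kb of a listed gene was often nearer another gene, and where that is so it is said beside the value. ChIP at a site does not show which gene, if any, it acts on.

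Of 38 receptor and adhesion genes of myeloid cells, 6 had a member (15.8%), with a median highest Day 12 score of 226. Fcer1g, the common gamma chain of Fc receptors, had a site 44 bp inside its start with scores of 105, 87.0 and 389 in Day 4, Day 8 and Day 12, and 44.5, 34.2 and 127 in Day 12- 4, Day 12- 8 and Day 12- 12. Csf2rb, the shared beta chain of the GM-CSF, IL-3 and IL-5 receptors, had one near an edge of its annotated body with 218, 94.7 and 290.5 in restoration and 27.1, 5.20 and 127 in knockdown. In Day 12- 8, Csf2rb was below and Fcer1g above the members' median of 19.2. The site counted for Cd68, a lysosomal glycoprotein of macrophages, lay nearer Mpdu1 and scored 294 at Day 12, and that counted for the LPS co-receptor Cd14 lay nearer Tmco6 and scored 162. Csf1r, the receptor for the macrophage growth factor, named here after its values were seen, had an intragenic site with a low Day 12 score of 46.6.

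In the list of phagocyte oxidase, granule and lysosome genes 1 of 30 had a member (3.33%). This was Rac2, the GTPase subunit of the oxidase, whose intragenic site scored 239, 210.0 and 807 in Day 4, Day 8 and Day 12. In knockdown it scored 63.5, 11.4 and 309 in Day 12- 4, Day 12- 8 and Day 12- 12, so its Day 12- 8 score was below the members' median and its Day 12 score far above it.

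Kinase and adaptor genes of myeloid signalling had a member in 4 of 31 cases (12.9%), with a median highest Day 12 score of 372. The site in Fes, a cytoplasmic tyrosine kinase of myeloid cells, scored 195, 166 and 661 in restoration and 80.0, 34.9 and 228 in knockdown. Ptpn6, the inhibitory phosphatase SHP-1, had an intragenic site with 443 at Day 12 and 8.79 in Day 12- 8, and a site nearer Emg1 with 272 and 32.4. Start-site members of Syk, the kinase of ITAM receptors, and Tec, a kinase of the BTK family, scored 300 and 261 at Day 12 and 34.7 and 19.3 in Day 12- 8.

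Among 38 GTPase and actin regulators of leukocytes 4 had a member (10.5%). Cyth4 has been given above. Arhgef10l, a guanine nucleotide exchange factor gene, held 2 members in its body, with Day 12 scores of 802 and 631 and Day 12- 8 scores of 53.3 and 12.8. The site counted for Arhgap30, a GTPase-activating protein gene, was at the start of Usf1 (373 at Day 12, 94.7 in Day 12- 8), and that counted for Fermt3, the integrin activator kindlin-3, was at the start of Trpt1 (138 at Day 12, 17.7 in Day 12- 8).

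Myeloid transcription factor genes had a member in 11 of 40 cases (27.5%), with a median highest Day 12 score of 418. Nfe2, a bZIP factor of megakaryocytes and other myeloid cells, had a site 166 bp outside its body that scored 172, 179 and 665 in Day 4, Day 8 and Day 12, and 45.1, 16.5 and 269.9 in Day 12- 4, Day 12- 8 and Day 12- 12. Nr4a1, an orphan nuclear receptor of monocytes, scored 204, 150.1 and 567 in restoration and 26.2, 9.74 and 84.0 in knockdown. Both therefore had Day 12- 8 scores below the members' median of 19.2, as did the site counted for Irf7, an interferon regulatory factor, which lay nearer Cdhr5 and scored 531 at Day 12. Jund, an AP-1 subunit, had a site 2299 bp upstream with 446 at Day 12 and 36.6 in Day 12- 8. The Fos promoter site shown above scored 431 at Day 12 and 19.5 in Day 12- 8. Named after its values were seen, Spi1 itself had an intragenic member, with 53.3, 40.1 and 305 in restoration and 17.8, 8.78 and 51.7 in knockdown.

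Co-factors and feedback regulators of blood cells had the largest share of the 6 myeloid lists, with a member at 9 of 30 genes (30%) and a median highest Day 12 score of 375. Ski, a repressor of TGF-beta and SMAD signalling, had an intragenic site with 350.1, 382 and 835 in restoration and 107, 43.3 and 505 in knockdown. Dusp6, a phosphatase of ERK, had a start-site member with 74.2, 71.8 and 426 in restoration, and 7.63, 6.97 and 83.7 in knockdown. Socs3, the feedback inhibitor of JAK kinases, had a site 5941 bp outside its body with 423 at Day 12 and 6.34 in Day 12- 8. Cbfb, given above, was far higher than these in Day 12- 8, at 203.

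None of the 28 stem cell and leukaemia-associated genes had a member. Of 25 cytokine and survival genes 2 had a member, a share (8.00%) close to that of all protein-coding genes: Tgfb1, with 332 at Day 12 and 17.3 in Day 12- 8, and Il3ra, the alpha chain of the IL-3 receptor, with 299 at Day 12 and 5.35 in Day 12- 8.

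Among the lists of other cell types, the erythroid and megakaryocytic one had the largest share. In that list 5 of 20 genes had one (25%), with a median highest Day 12 score of 225. Vwf, von Willebrand factor, had an intragenic site with 140, 194 and 600 in restoration and 80.6, 23.5 and 242 in knockdown, and Zfpm1, the GATA1 partner FOG1, had 2 with 465 and 342 at Day 12. The site counted for the erythroid factor Klf1 lay at the start of Dnase2a and scored 225 at Day 12, and Nfia had an intragenic one with 144. B-lymphoid genes gave 2 of 20 (Vpreb1 and Igll1, which share 1 site at the start of Top3b with 124 at Day 12), T-lymphoid genes 1 of 20 (Cd247, the zeta chain, with 218), mast cell and basophil genes 0 of 14, and non-haematopoietic genes 1 of 20 (the apolipoprotein gene Apoa1, with 357).

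The list with the largest share was that of the cell cycle and housekeeping genes, with a member at 13 of 32 (40.6%) and a median highest Day 12 score of 242. Rpl13a, a large ribosomal subunit protein, had a site at its start with 8.19, 15.7 and 191 in restoration and 3.83, 13.4 and 30.2 in knockdown. Ccnd3, cyclin D3, had a start-site member with 335 at Day 12 and 8.79 in Day 12- 8, and Rps18, whose promoter is shown above, 314 and 8.84. The site counted for Tbp, the TATA-binding protein, was nearer Psmb1 and scored 311 at Day 12 and 38.8 in Day 12- 8. Pooled, the 6 myeloid lists had a member at 35 of 207 genes (16.9%), the 5 lists of other cell types at 9 of 94 (9.57%), and those 5 with the housekeeping list at 22 of 126 (17.5%), all beside 8.51% of protein-coding genes. These counts turned on Day 12- 8: without that library the rule gave 104 of the 207 myeloid genes, 38 of the 126 others and 3998 protein-coding genes in all.

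Sites called in all 7 libraries were within the same reach of 6.34% of protein-coding genes. For the members the share was 8.51%, so the counts below have unequal backgrounds. Some of them differ by 1 gene, and none of the differences was tested. Lists with fewer members than such sites were the kinase and adaptor genes (4 with a member against 10), the GTPase and actin regulators (4 against 11), the oxidase, granule and lysosome genes (1 against 3) and the stem cell genes (0 against 1). Lists with more were the housekeeping genes (13 against 3), the transcription factors (11 against 5), the co-factors (9 against 4), the erythroid and megakaryocytic genes (5 against 0), the receptors (6 against 5), the cytokine genes (2 against 1) and the non-haematopoietic genes (1 against 0). The B-lymphoid, T-lymphoid and mast cell lists had equal counts.

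**Figure D5:**
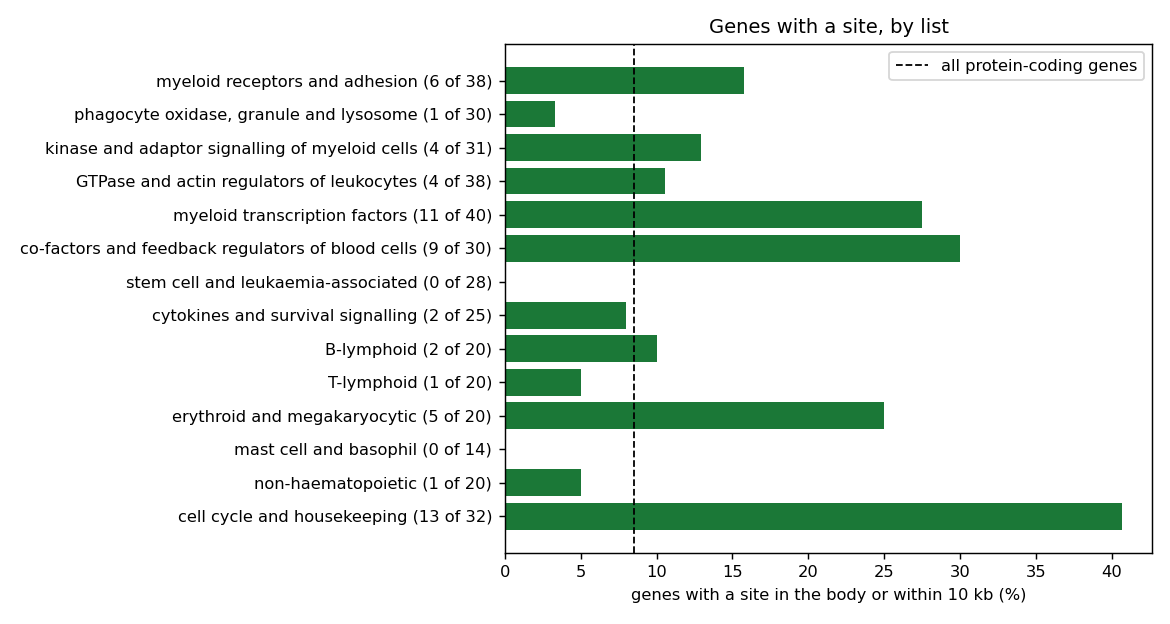
Share (%) of the genes of each of 14 lists with a member in the body or within 10 kb, with the share among all protein-coding genes (8.51%) as a line. The cell cycle and housekeeping list is highest at 40.6%, followed by the co-factor list at 30% and the myeloid transcription factor list at 27.5%, and 2 lists have none.

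Families of genes with broad use, grouped by symbol after the data were seen, were counted by a member within 1 kb of a RefSeq start, which 4.46% of 17492 protein-coding genes had. The same share for sites called in all 7 libraries was 4.11%. Mitochondrial ribosomal protein genes had a member at 17 of 69 starts (24.6%), against a site of all 7 libraries at 3 (4.35%). Genes of respiratory complex I and its assembly had a member at 8 of 42 (19.0%), against a site of all 7 libraries at 1 (2.38%). Cytosolic ribosomal protein genes did not show this gap, with a member at 10 of 61 (16.4%) and a site of all 7 libraries at 11, and proteasome genes had 5 of 33 for both (15.2%). Translation initiation genes, which by symbol took in Eif4ebp2, a binding protein of eIF4E, had 6 of 44 for both (13.6%). RNA polymerase subunits had 3 of 23 for members and 5 for sites of all 7 libraries, and numbered zinc finger genes 18 of 331 (5.44%) and 13 (3.93%).

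Among the mitochondrial ribosomal genes the scores covered a wide range. Mrpl18 had 96.6, 111 and 554 in Day 4, Day 8 and Day 12, and 87.3, 73.6 and 203 in Day 12- 4, Day 12- 8 and Day 12- 12. The site at the start of Mrpl30, which lay nearer Mitd1, had 11.2, 10.6 and 97.2 in restoration and 12.2, 8.30 and 24.4 in knockdown. The site at Mrpl43, which also lies in Twnk, the mitochondrial helicase gene, had the lowest Day 4 score of all 1211 sites, 2.25. In complex I, the site at the start of Ndufaf7, an assembly factor, lay nearer Cebpz and had 88.2, 185 and 471 in restoration and 80.5, 70.1 and 124 in knockdown, while the core subunit gene Ndufs3 had 5.02, 3.49 and 74.0, then 3.90, 12.1 and 18.8.

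The 12 sites with the highest median rank across the 6 libraries were mostly away from starts. Of these 10 were remote and 1 was at a start (Prune1). The remote ones, by nearest protein-coding gene, were at Ski, Ptk2, Ttc7, Epas1, Nipal3, Rmnd5b, Gfod1, Arid3a, Chn2 and Arhgef10l. Their Day 12 scores ran from 711 at Arid3a to 835 at Ski, and their Day 12- 8 scores from 6.34 at Gfod1 to 98.9 at Epas1. Prune1, a phosphodiesterase gene, had 276, 353 and 842 in restoration and 153, 39.9 and 457 in knockdown. Ptk2, the focal adhesion kinase gene, was 18759 bp from its site, which scored 366, 427 and 810 in restoration and 117, 45.9 and 381 in knockdown. At Chn2, a Rac GTPase activator gene, the site scored 736 at Day 12 and 346 in Day 12- 12 but 11.1 in Day 12- 8.

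Most genes with a member had 1 site. That held for 1753 genes, with 101 at 2 sites, 7 at 3 and 1 at 4. The gene with 4 was Gse1, and the first of those with 3 by symbol were Acap1, an Arf GTPase activator, Arid3a, a DNA-binding factor of B cells and progenitors, Cirbp, a cold-inducible RNA-binding protein, and Dmpk, a protein kinase. Members were well spread: the nearest other member was 818 bp away at the least and 70 of the 1211 (5.78%) had another within 10 kb.

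Absence from Day 0 is set by a distance of 100 bp and by the shortest of the 7 lists, with 8043 summits. A Day 0 summit lay within 500 bp of 94 members, 7.76% (6.32 to 9.42%), and within 10 kb of 293, 24.2%. Of the 94, 80.9% were at a start, against 58.5% of the other 1117, and their median Day 12- 8 score was 48.3 against 17.9. The sites named above at Cbfb (165 bp), Gpatch2l (118 bp), Usf1 (118 bp), Tec (168 bp), Rmnd5b (106 bp) and Pacc1 (224 bp) were among the 94. Just inside the rule was a site near Sgk1, a serum-induced kinase gene, 102 bp from a Day 0 summit that scored 46.4, and one at Mrpl57, 105 bp from a Day 0 summit that scored 10.0. Just outside it, counted in all 7 libraries, were sites near Sptlc2 and Fbxo6 whose Day 0 summits lay 100 bp from the others and scored 16.1 and 7.24. Every member had exactly 1 summit from each of the 6 libraries, and its summits spanned 89 bp in the median (9 to 331 bp).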

How the data were processed

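PU.1 ChIP-seq summits of 7 libraries were used, 1 per time point; a further sample labelled 12 days off Dox was not analysed here. Per the submitters' processing notes, peaks came from MACS2 and the build was mm10. The aligner, the MACS2 version, the control and any pooling are not given in the sources used here. The deposited scores are read as −log10 q from their values (lowest 1.30). Depth is unknown, and shares carry counting intervals only.

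Summits were merged by single linkage within 100 bp, and a site's middle was placed on RefSeq GRCm38.p6 genes and promoter windows using scipy 1.17.1, pandas 2.3.3 and numpy 2.4.6 under Python 3.11.15. The scripts were tested on simulated data. Intervals are exact Clopper-Pearson, at 95%. No p-values were computed.

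The members and the 14 gene lists (387 genes, 386 matched) were chosen with earlier results of these data known. Named sites were the 12 with the highest median rank, up to 4 genes per list by Day 12 score, the 5 genes with most sites, promoter sites in rank order, sites at the edge of the rule and the extremes of each list. Family prefixes, the start-site split and 2 of the 6 strings were added after the data were seen. Alternatives to the linkage, span, list length, distances and libraries were tried. Some sites picked by the rule for named sites are not reported here.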

Additional observations from a re-analysis of the deposited data

How the results depend on the processing

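Of 101 recomputed values, 26 moved, and 75 did not: counts stayed within 1.5 times, and shares within the 95% interval, of those reported. Linkage at 50 bp gave 856 sites, 1321 genes, 26 myeloid list genes and 16 comparison ones, within that limit. Leaving out 1 library at a time gave 1186 to 4144 sites, 29.1 to 64.2% of them near a gene end, 58.2 to 69.6% inside a gene body, 3.69 to 8.77% with a Day 0 summit between 100 and 500 bp away, 1826 to 3998 genes, 34 to 104 myeloid list genes and 22 to 38 comparison list genes; each moved value came from leaving out Day 12- 8, with 4144 sites, 29.1%, 58.2%, 3.69%, 3998, 104 and 38. Requiring all summits within a span of 100 bp left 704 sites, 59.4% near a gene end, 10.1% near a Day 0 summit, 1061 genes, 20 myeloid list genes and 12 comparison ones. With every list reduced to the length of the shortest there were 300 sites, 499 genes, 15 myeloid list genes and 5 comparison ones. Linkage at 200 bp gave 2.62% near a Day 0 summit. The share near a gene end was 57.6% within 500 bp and 78.0% within 5 kb. Gene bodies alone held members at 831 genes, 19 myeloid list genes and 8 comparison ones, and a 50 kb reach gave 3723, 57 and 34. The fewer sites, libraries or bases follow from how each alternative was built. No paired analysis was possible because each time point had 1 library. Unknown depth, list lengths that differ widely and the single library per time point limit every value.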

Other observations

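For 1206 of the 1211 sites the highest of the 6 scores was that of Day 12. The 5 others were named after their values were seen. A remote site whose nearest protein-coding gene is Ptprc, the CD45 phosphatase of leukocytes, at 311104 bp, had a Day 4 score of 220, a Day 8 score of 82.9 and a Day 12 score of 20.5, the lowest Day 12 score of the set. A remote site near Tbl1xr1, a subunit of the NCoR complex, had 194 for Day 4, 67.3 for Day 8 and 128 for Day 12. The start site of Cmklr1, the chemerin receptor, scored 54.1 in Day 12- 12 and 33.5 in Day 12, a site 14012 bp from Psap, the prosaposin gene, 104 and 80.5, and a site on an unplaced scaffold 80.1 and 53.7. Scores of different lists depend on depth, so these values are not changes in binding.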
